A study of Mus musculus with 9 samples.

Results

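The chemokine and formyl peptide receptors examined here were 7 genes, Ccr1, Ccr2, Cx3cr1, Cxcr2, Cxcr4, Fpr1 and Fpr2, out of 16535 named genes on the array. They were chosen by name, and every probe whose RefSeq accession belongs to 1 of them was taken, which gave 11 probes. Ccr1, Ccr2 and Fpr1 had a single probe each, and the other 4 genes had a pair. Of the 7 genes, 6 were bright enough to be tested, with 10 probes between them, and each of these probes exceeded background clearly on all 9 arrays.

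The arrays measured total RNA of FDCPmix, a mouse multipotent hematopoietic line, kept in self-renewal conditions and transduced with lentivirus. The 3 groups of 3 arrays each carried an empty virus (empty vector, EV), shRNA directed against Gata2 (Gata2 KD, knockdown) or shRNA directed against Pu.1 (Pu.1 KD), and all groups shared the GFP-carrying lentiviral vector and the sort for viable GFP-positive cells 5 days after transduction. Pu.1 is the common name of Spi1. Each group was transduced as triplicate samples of 1 cell line, and nothing states whether these were separate cultures, so the p-values measure the spread between these samples, which may be partly technical, and bulk RNA cannot tell fewer cells of a type from less RNA per cell.

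Chemokine and formyl peptide receptors are G protein-coupled receptors that sit on the surface of white blood cells and steer them along gradients of attractant. Chemokine receptors bind small secreted chemokines, whereas formyl peptide receptors bind formylated peptides released by bacteria and damaged mitochondria, and both signal mainly through inhibitory G proteins, phosphoinositide 3-kinase and small GTPases. In bone marrow CXCR4 holds progenitors and immature neutrophils near stromal CXCL12, while CXCR2 draws mature neutrophils, and CCR2 draws monocytes, into the blood.

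Fpr1, Fpr2 and Ccr2 were the members with the largest changes, and their promoters are shown for that reason. The windows run from 250 bases before to 50 bases after the transcription start (RefSeq, mouse build GRCm38.p6), and Fpr1 and Fpr2 lie head to head on chromosome 17 with 3384 bases between their windows. Capitals mark matches to GATA-type motifs given after the sequences.
Fpr1, chr17:17883890-17884189, minus strand: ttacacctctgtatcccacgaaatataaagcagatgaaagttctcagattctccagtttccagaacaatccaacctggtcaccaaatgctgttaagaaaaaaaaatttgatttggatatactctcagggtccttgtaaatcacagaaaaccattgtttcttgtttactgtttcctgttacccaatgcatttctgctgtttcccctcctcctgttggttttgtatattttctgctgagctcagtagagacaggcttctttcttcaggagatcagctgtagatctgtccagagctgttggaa
Fpr2, chr17:17887574-17887873, plus strand: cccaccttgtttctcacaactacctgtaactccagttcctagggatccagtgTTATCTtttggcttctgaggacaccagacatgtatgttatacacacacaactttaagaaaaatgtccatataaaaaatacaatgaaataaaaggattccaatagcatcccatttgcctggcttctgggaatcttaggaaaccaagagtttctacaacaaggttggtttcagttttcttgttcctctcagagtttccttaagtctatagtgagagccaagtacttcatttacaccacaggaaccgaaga
Ccr2, chr9:124101933-124102232, plus strand: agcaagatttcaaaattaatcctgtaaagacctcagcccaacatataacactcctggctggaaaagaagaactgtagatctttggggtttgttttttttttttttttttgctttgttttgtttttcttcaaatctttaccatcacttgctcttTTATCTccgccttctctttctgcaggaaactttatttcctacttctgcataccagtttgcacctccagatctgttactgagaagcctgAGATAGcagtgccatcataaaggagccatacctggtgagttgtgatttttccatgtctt

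A promoter window was found for 7 of 7 members. None of them held GGAAGTG (an ETS motif, the class that PU.1 binds), the GATA-family motif AGATAAG or the C/EBP motif TTGCNNAA on either strand. Among all 32851 promoter windows, 11% held GGAAGTG, 3.04% held AGATAAG and 10.8% held TTGCNNAA. Shorter motifs, which lie within or overlap the longer ones and were chosen after that search, were the ETS core GGAAG, in 71.4% of all windows, and 4 GATA forms. Of these AGATAA was in 11.2% of windows, the form AGATAG in 8.95%, the form TGATAA in 9.05% and the form TGATAG in 7.29%. The Fpr2 window held AGATAA on the opposite strand at positions -198 to -193 from the start, and the Ccr2 window held AGATAA on the opposite strand at -97 to -92 and AGATAG at -9 to -4. The Fpr1 window held none of the shorter motifs, nor did those of Ccr1 and Cxcr4. Cxcr2 held 5 matches to GGAAG, and Cx3cr1 held 1 match to GGAAG and 1 to AGATAG. The windows of Fpr1 (40% GC), Fpr2 (39.3%) and Ccr2 (38%) had lower GC content than the median of all windows (52.7%), while that of Cxcr4 was at 59.3%. A match, or its lack, describes the letters of these windows.

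Levels are log2 intensities minus that array's 75th percentile, so 0 is a probe as bright as the percentile. Outside the sums of marker levels, levels of different probes are not set against each other. The share of spots clearly above background was 80.4% to 89.6% per array, and no spot was saturated. EV replicate 3 correlated least with the rest (mean Pearson r across probes of 0.960, against up to 0.978). Gata2 fell by 1.61 on the log2 scale in Gata2 KD (limma, adjusted p = 0.00414) and Spi1 fell by 1.73 in Pu.1 KD (limma, adjusted p = 0.00178), and neither overlapped with EV. Spi1 was also above EV in Gata2 KD, by 1.39 (limma, adjusted p = 0.00120).

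Fpr1, the high-affinity receptor for formylated peptides, was low in control cells and in cells with reduced Pu.1, and high after Gata2 knockdown. Its level on EV arrays 1, 2 and 3 was -2.35, -3.21 and -2.84, on Gata2 KD arrays 0.29, 0.43 and 0.18, and on Pu.1 KD arrays -2.99, -3.09 and -2.70. Every Gata2 KD array was above every other array, and the EV and Pu.1 KD arrays overlapped. The rise in Gata2 KD over EV was 3.10 on the log2 scale (SE 0.22, 8.56-fold, limma, adjusted p = 0.000114), and within the 3 slides, each of which held 1 array per group, it ran from 2.53 to 3.50. In Pu.1 KD the difference from EV was -0.13 (95% interval -0.64 to 0.39), which did not pass the test (limma, adjusted p = 0.98).

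Fpr2, the receptor with the broader ligand range that also binds annexin A1, gave the largest change among the members. Its brighter probe read -3.12, -3.28 and -3.27 on the EV arrays, 1.08, 0.74 and 0.71 on the Gata2 KD arrays and -3.90, -3.99 and -4.28 on the Pu.1 KD arrays. The 3 groups did not overlap, with Gata2 KD highest and Pu.1 KD lowest. Gata2 KD exceeded EV by 4.07 (SE 0.16, 16.7-fold, limma, adjusted p = 7.49e-06), and by 3.83 to 4.36 within slides. Pu.1 KD lay below EV by a log2 change of -0.84 (SE 0.16, limma, adjusted p = 0.0353), a call that was kept under 6 of 21 alternative settings and lost under 15.

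The dimmer Fpr2 probe read -3.72, -3.96 and -2.55 on the EV arrays, -2.31, -2.04 and -1.81 on the Gata2 KD arrays and -2.75, -3.90 and -3.18 on the Pu.1 KD arrays. Gata2 KD was again the highest group without overlap, by 1.36 over EV (SE 0.41), but this probe did not pass the test (limma, adjusted p = 0.127). Its difference in Pu.1 KD was 0.14, opposite in sign to that of the brighter probe, and likewise did not pass. The fall in Pu.1 KD therefore rests on the brighter probe, and the mean of both probes gave -0.35 (limma, adjusted p = 0.71). Fpr2 has close paralogs, and probe cross-hybridization was not tested.

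Ccr2, the receptor for CCL2 on inflammatory monocytes, rose after Gata2 knockdown, and its Pu.1 KD arrays lay below EV by a difference that did not pass the test. Its level was -1.43, -0.999 and -1.04 on the EV arrays, 2.01, 1.33 and 1.33 on the Gata2 KD arrays and -2.77, -1.96 and -2.21 on the Pu.1 KD arrays. The 3 groups did not overlap. Gata2 KD was above EV by 2.71 (SE 0.27, 6.55-fold, limma, adjusted p = 0.000648) and by 2.37 to 3.01 within slides. The difference in Pu.1 KD was -1.16 (SE 0.27, limma, adjusted p = 0.0716), with -1.73 to -0.78 within slides. It passed under 5 of 21 alternatives, among them slide as a block, where the adjusted p in limma was 0.0280.

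**Figure D1:**
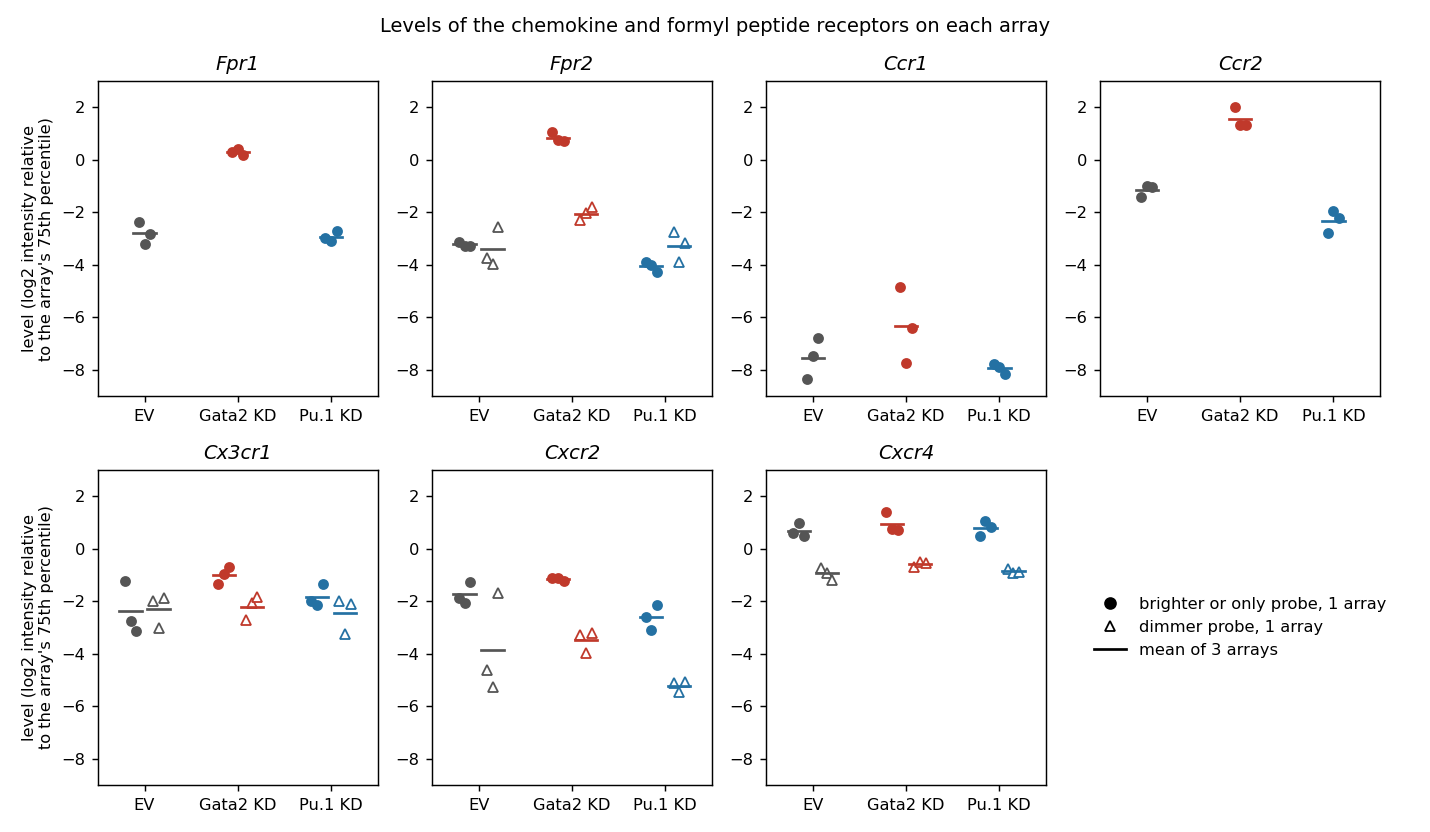
Level of each receptor (vertical axis, log2 intensity minus the array's 75th percentile) on the 9 arrays, by group (horizontal axis), with 1 symbol per array, a bar at the mean of 3 arrays, filled circles for the brighter or only probe and open triangles for the dimmer one. The Gata2 KD arrays of Fpr1 (0.18 to 0.43), Fpr2 (brighter probe, 0.71 to 1.08) and Ccr2 (1.33 to 2.01) stand above all EV and Pu.1 KD arrays, whereas the groups of Cxcr4's brighter probe overlap. The Ccr1 probe was above background on 1 array.

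Cxcr2, which encodes the receptor for CXCL1, CXCL2 and related neutrophil attractants and was formerly named Il8rb, differed between the 2 knockdowns. Its brighter probe read -1.86, -2.06 and -1.26 on the EV arrays, -1.10, -1.11 and -1.24 on the Gata2 KD arrays and -2.60, -3.11 and -2.13 on the Pu.1 KD arrays. The 3 groups did not overlap, with Gata2 KD just above the highest EV array, which was EV replicate 3. Against EV, neither the difference in Gata2 KD of 0.58 (SE 0.28, limma, adjusted p = 0.423) nor that in Pu.1 KD of -0.89 (SE 0.28, limma, adjusted p = 0.191) passed the test. Gata2 KD was higher than Pu.1 KD by 1.46 (SE 0.28, 2.76-fold, limma, adjusted p = 0.0123), and within slides by 0.90 to 2.01. Without Gata2 KD replicate 2 the adjusted p in limma was 0.0545.

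The dimmer Cxcr2 probe read -4.63, -5.26 and -1.68 on the EV arrays, -3.29, -3.97 and -3.23 on the Gata2 KD arrays and -5.13, -5.47 and -5.09 on the Pu.1 KD arrays. EV replicate 3 was far above the other EV arrays for this probe. The difference between the knockdowns had the same sign as for the brighter probe, 1.73 (SE 0.80), and did not pass (limma, adjusted p = 0.308). The mean of both probes differed by 1.60 and did not pass either (limma, adjusted p = 0.106).

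Cx3cr1, the fractalkine receptor of monocytes and tissue macrophages, varied widely among control arrays. Its brighter probe read -1.23, -2.75 and -3.14 on the EV arrays, -1.37, -0.97 and -0.69 on the Gata2 KD arrays and -2.003, -2.16 and -1.34 on the Pu.1 KD arrays. EV replicate 1 lay within the range of the Gata2 KD arrays, and the other EV arrays lay below all of the remaining arrays. The difference between Gata2 KD and EV was 1.36 (SE 0.47, limma, adjusted p = 0.197). It passed under 2 of 21 alternatives. These were the fit without EV replicate 1, where it was 1.93 (limma, adjusted p = 0.0162), and slide as a block (limma, adjusted p = 0.0418). With the mean of both probes it was 0.72 and did not pass (limma, adjusted p = 0.508). The dimmer probe had a difference of 0.08 (SE 0.43) and overlapping groups, so the probes of this gene did not give 1 picture.

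Cxcr4, the CXCL12 receptor that is widely expressed on hematopoietic progenitors, did not pass the test in any comparison. Its brighter probe read 0.61, 0.97 and 0.46 on the EV arrays, 1.41, 0.75 and 0.70 on the Gata2 KD arrays and 0.49, 1.03 and 0.84 on the Pu.1 KD arrays. All groups overlapped. The difference from EV was 0.27 in Gata2 KD (95% interval -0.29 to 0.83, limma, adjusted p = 0.815) and 0.11 in Pu.1 KD (95% interval -0.45 to 0.67, limma, adjusted p = 0.996). The dimmer probe read -0.74, -0.92 and -1.19 on the EV arrays, -0.72, -0.50 and -0.55 on the Gata2 KD arrays and -0.77, -0.93 and -0.89 on the Pu.1 KD arrays. On this probe the Gata2 KD arrays lay above all EV and Pu.1 KD arrays, and above EV on 3 of 3 slides. The difference from EV was 0.36 in Gata2 KD (95% interval 0.005 to 0.71, limma, adjusted p = 0.335) and 0.08 in Pu.1 KD (95% interval -0.27 to 0.44, limma, adjusted p = 0.982). The intervals of the brighter probe leave room for changes of up to 0.83 in Gata2 KD.

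Ccr1, a receptor for CCL3, CCL5 and related chemokines, was not measured well enough to be compared. Its single probe was well above background only on Gata2 KD array 1, where it read -4.84, and was not well above background on the EV and Pu.1 KD arrays. The other Gata2 KD arrays read -7.72 and -6.39, within or close to the range of the EV arrays (-8.35 to -6.77). No fold is given for it.

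By their brightest probes, 3 of the 6 tested members rose in Gata2 KD over EV (Fpr1, Fpr2 and Ccr2) and 0 fell, whereas 4.21% of all 15808 genes tested were called higher and 2.95% lower. The median change of the 6 was 2.04, against -0.09 over all genes. In Pu.1 KD 0 of the 6 were called higher and 1, Fpr2, lower, with a median of -0.48 against -0.04 over all genes. The background there was 1.45% called higher and 2.16% lower. By limma's unadjusted p at 0.05, 3 were lower in Pu.1 KD (Fpr2, Ccr2 and Cxcr2) and 0 higher, and in Gata2 KD 4 were higher (Cx3cr1 added) and 0 lower. Between the knockdowns, 4 of the 6 were higher in Gata2 KD than in Pu.1 KD (Fpr1 by 3.22, Fpr2 by 4.90, Ccr2 by 3.87 and Cxcr2 by 1.46) and 0 were lower, also by the unadjusted p, against 6.77% and 5.6% of all genes. Both comparisons against EV use the same 3 EV arrays, so their values are not independent.

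**Figure D2:**
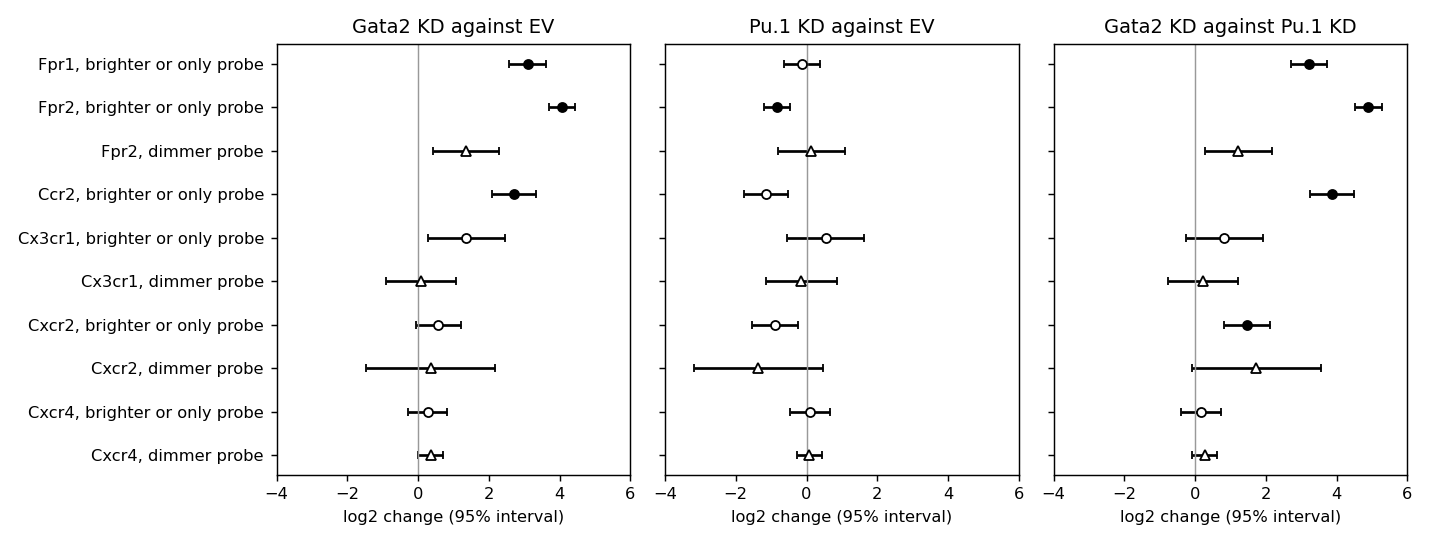
Log2 change of each tested probe (horizontal axis, with its 95% interval) in the 3 comparisons, where filled symbols passed limma's test by the brighter or only probe and triangles are dimmer probes. Fpr1, Fpr2 and Ccr2 lie at 3.10, 4.07 and 2.71 in Gata2 KD against EV, and the dimmer Fpr2 probe lies at 1.36.

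A moderated F test over the 3 groups in limma found a difference for Fpr2 (adjusted p = 3.14e-06), Fpr1 (adjusted p = 7.29e-05), Ccr2 (adjusted p = 0.000130) and Cxcr2 (adjusted p = 0.0312). It did not for Cx3cr1 (adjusted p = 0.282) or Cxcr4 (adjusted p = 0.977). For these 4 members, the genes whose levels over the 9 arrays were most like theirs were sought among 1853 genes past the same test, as the root mean square difference after each gene was centered on its EV mean. For Fpr2 they were Lcn2 (0.17), which encodes the neutrophil granule protein lipocalin 2, Rab7b (0.20) and the C-type lectin gene Clec4b1 (0.23). For Fpr1 they were the C-type lectin gene Clec4n (0.18), Rnase2a (0.20) and Shtn1 (0.21). Ccr2 was nearest to Rhou (0.12) and to the granule genes Camp (0.20) and Lyz2 (0.25). Cxcr2 was nearest to Tspan5 (0.23), Zfp36 (0.24) and Trim30b (0.25).

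**Figure D3:**
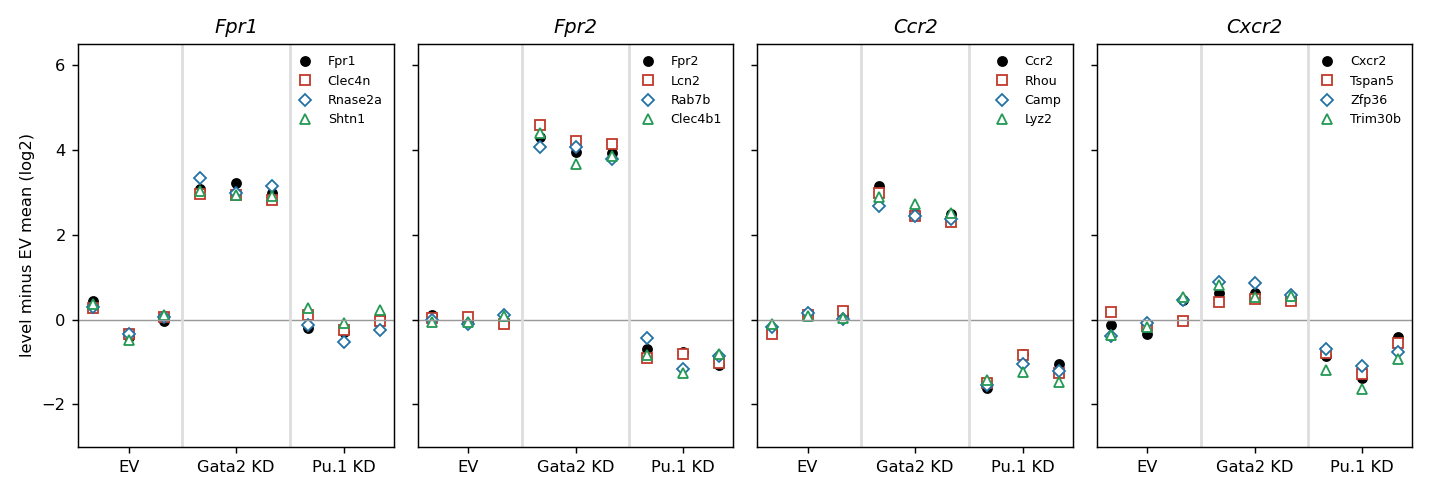
Level minus its EV mean (vertical axis, log2) on each of the 9 arrays, by group, for the 4 receptors past the F test (filled circles) and the 3 genes nearest to each (open symbols). The arrays of a group stand in the order of their replicate numbers, and the differences from the receptor range from 0.12 for Rhou to 0.25 for Lyz2.

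Neighboring genes on the chromosome were examined next, with 3 protein-coding genes on each side of a member taken from the gene order of GRCm38.p6. Around Ccr2, in the chemokine receptor cluster of chromosome 9, Ccr1l1 and Ccr3 were also tested, and neither was called against EV. In Gata2 KD the difference from EV was 0.49 for Ccr3 (limma, adjusted p = 0.595) and 0.07 for Ccr1l1 (limma, adjusted p = 0.985). The gene on the far side of Fpr1, Has1, differed by -0.16 (limma, adjusted p = 0.985), while the next genes past Fpr2, Fpr3 and Fpr-rs4, had no probe named here. Cxcr1, next to Cxcr2, differed by -0.84 in Gata2 KD with an SE of 0.99 (limma, adjusted p = 0.896). Among the neighbors of Cxcr4, Cd55, a complement regulator, fell by 2.53 in Gata2 KD (limma, adjusted p = 4.74e-05) and Cd55b fell by 0.88 (limma, adjusted p = 0.0164). The other tested neighbors of Cxcr4, Mcm6 (-0.15), Dars (-0.26) and Thsd7b (-0.24), were not called in Gata2 KD against EV. Of these, Dars and Thsd7b lie directly beside Cxcr4.

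Of the other 18 chemokine receptors, 17 were tested, and in Gata2 KD against EV 0 rose and 0 fell in limma, with a median of 0.04 (2 higher and 1 lower by the unadjusted p at 0.05). In Pu.1 KD only Ackr1, an atypical receptor that binds chemokines without G protein signaling and is known from erythroid cells, was called, higher by 1.56 (SE 0.18, limma, adjusted p = 0.00415). Between the knockdowns Ackr1 (-2.16) and Cxcr5 (-0.82) were lower in Gata2 KD, and Ccrl2 (0.71) was among those that were higher. Of 14 other chemoattractant receptors 8 were tested, and 0 were called by limma in Gata2 KD against EV (1 higher and 1 lower by the unadjusted p). C3ar1, the receptor for the complement peptide C3a, fell by 1.46 in Pu.1 KD (SE 0.15, limma, adjusted p = 0.00289), and its level in Gata2 KD exceeded that in Pu.1 KD by 1.14 (limma, adjusted p = 0.00165). Its difference in Gata2 KD against EV was -0.32.

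Among 20 tested chemoattractant ligands, 11 rose and 0 fell in Gata2 KD over EV in limma (15 and 0 by the unadjusted p), with a median of 1.06. The largest rises were those of C3, the precursor of C3a (4.43), Ccl5 (2.80) and Ccl2 (2.68, SE 0.17, limma, adjusted p = 6.41e-05), the main ligand of CCR2. Ccl2 read -1.42, -1.55 and -1.08 on the EV arrays, 1.36, 1.34 and 1.29 on the Gata2 KD arrays and -2.29, -2.62 and -2.18 on the Pu.1 KD arrays, with no overlap between groups. In Pu.1 KD 4 ligands fell, led by Ccl9 (-1.91), Camp (-1.27) and Ccl6 (-1.23), and Cxcl3 rose by 1.12, with a probe that was above background on 1 of the 3 EV arrays, so the size of its rise is uncertain. Between the knockdowns 13 were higher in Gata2 KD, led by C3 (4.59), Camp (3.76) and Ccl2 (3.69), and 0 were lower. Cxcl12, the ligand of CXCR4, differed by 0.29 in Gata2 KD and 0.26 in Pu.1 KD against EV and passed neither test.

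Of 27 tested genes that act below these receptors, 7 rose and 1 fell in Gata2 KD over EV, with a median of 0.05. Fgr, a Src-family kinase of myeloid cells, rose by 2.45, Pik3r5, a regulatory subunit of phosphoinositide 3-kinase gamma, rose by 2.12, and Rgs1, which shortens G protein signals, fell by 1.95. In Pu.1 KD 6 fell and 0 rose in limma (12 and 1 by the unadjusted p), among them Rgs2 (-1.50) and Pik3r5 (-1.35). Between the knockdowns 13 were higher in Gata2 KD and 1 lower, and those higher included Pik3r5 (3.47) and Fgr (2.78).

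**Figure D4:**
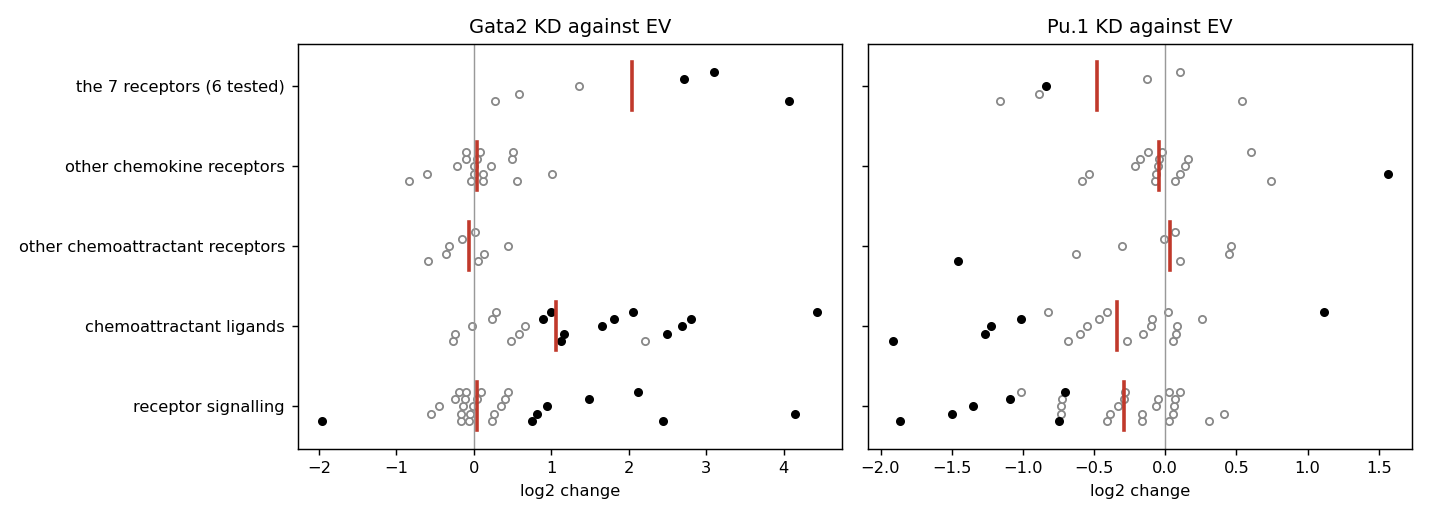
Log2 change of each tested gene by its brightest probe (horizontal axis, on a different range in each panel) in Gata2 KD and Pu.1 KD against EV, for the receptors examined here and the 4 other gene lists (vertical axis), with filled points for genes past limma's test and a red line at each list's median. In Gata2 KD the median of the 6 receptors is 2.04, that of the 17 other chemokine receptors 0.04 and that of the 20 ligands 1.06.

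Markers of several cell types also differed between the groups, in directions that depended on the cell type. Of 14 neutrophil markers, 13 rose in Gata2 KD over EV and 10 fell in Pu.1 KD, and the sum of their linear levels (in units of the 75th percentile of the array) was 241 to 271 in EV, 1139 to 1358 in Gata2 KD and 106 to 125 in Pu.1 KD. Of 10 monocyte or macrophage markers, 7 rose in Gata2 KD and 2 fell in Pu.1 KD, with sums of 9.76 to 12.2 in EV, 42.7 to 51.3 in Gata2 KD and 6.44 to 8.26 in Pu.1 KD. Mrc1, of this list, was not above background on any EV or Pu.1 KD array. Of 8 mast cell or basophil markers, 6 fell in Gata2 KD, where the sum was 24.0 to 26.3 against 125 to 143 in EV, and 1 rose and 2 fell in Pu.1 KD (89.2 to 97.3).

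Of 9 erythroid or megakaryocyte markers, 3 fell in Gata2 KD and 4 rose in Pu.1 KD, with sums of 66.9 to 86.4 in EV, 64.5 to 99.0 in Gata2 KD and 161 to 189 in Pu.1 KD. Pf4 alone made up 43.8% to 54.3% of this sum in EV, 55.8% to 67.2% in Gata2 KD and 60.2% to 62.6% in Pu.1 KD, so the sum does not show the falls of Klf1 (-1.76), Gata1 (-1.08) and Epor (-0.65) in Gata2 KD. Bright probes weigh most in the other sums too, where Ctsg was 51.0% to 52.8% of the neutrophil sum in EV and 78.1% to 81.2% in Pu.1 KD, and the counts of markers do not depend on this weight. Of 8 progenitor markers, 3 rose and 1 fell in Gata2 KD (sums of 79.6 to 94.3 against 48.9 to 61.3 in EV), and 1 rose and 1 fell in Pu.1 KD (40.5 to 45.8). Myb made up 44.2% to 47.8% of the progenitor sum in EV and 18.6% to 22.0% in Gata2 KD. The higher sum in Gata2 KD therefore came from markers other than Myb. Of 6 lymphoid markers 0 were called in limma in either comparison against EV, by the adjusted or the unadjusted p, with sums of 1.68 to 2.61 in EV, 1.67 to 2.60 in Gata2 KD and 1.69 to 2.57 in Pu.1 KD. The part of these marker changes in the receptor changes was not tested. Camp belongs to both the ligand and the neutrophil lists, and Camp and Lcn2 are among the genes nearest to Ccr2 and Fpr2.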

How the data were processed

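Cy3-labeled cRNA made from 150 ng of total RNA of 9 samples was hybridized to single-color Agilent 4x44K mouse arrays. The authors deposited the scanner intensities of Agilent Feature Extraction 10.1.1.1, background-subtracted within each array and not normalized between arrays, and a table of log2 values whose processing is not described in detail. The deposited log2 columns had medians of 7.00 to 7.05 and correlated with the log2 median signal of their array at 0.997 or more, which is signal without background subtraction, and were used as an alternative.

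Main values were log2 processed signal, spots with outlier flags removed (47 to 96 per array), averaged per probe, minus the 75th percentile of the array. Probes well above background on at least 3 arrays (for repeated probes, in 50% or more of their spots) with at least 2 values per group were tested, 36585 of 41174. Accessions were matched to RefSeq (GRCm38.p6), naming 23374 probes. Groups came from the sample titles. All probes were fitted with limma 3.58.1 in R 4.3.3 (group means over 9 arrays, two-sided, Benjamini-Hochberg over all tested probes, threshold 0.05). The brightest tested probe stood for a gene. Motifs were searched on both strands. The number of arrays limits the precision.

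The alternatives were blocks for replicate number and slide, normexp (offset 50), quantile and median scaling, no filter, a filter on all 9 arrays, flagged spots kept, trend and robust eBayes, the deposited values, a fit of the compared groups alone, the mean of a gene's probes, and each array left out in turn. The 7 receptors, the gene lists and the tests were chosen with earlier results of these data known. Named were the receptors, the targeted genes, the 3 called genes with the largest change of each receptor, ligand and signaling list, the 3 genes nearest to each receptor past the F test, and, named outside that rule after their values were seen, neighboring genes on the chromosome, Rgs1, Ccrl2, Cxcl3, Cxcl12 and the cell type markers. Some genes that the rule picks are not reported here. No arrays were identical.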

Additional observations from a re-analysis of the deposited data

How the results depend on the processing

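Each change was recomputed under 21 alternatives. Fpr1, Fpr2 and Ccr2 stayed called in Gata2 KD against EV and against Pu.1 KD under 21 of 21, with changes over EV of 2.20 to 3.32 for Fpr1, 2.71 to 4.21 for Fpr2 and 2.34 to 2.83 for Ccr2. The counts of members called higher stayed within 1.5 times those reported. The count called lower in Pu.1 KD against EV, 1 as reported, was not stable. It was 0 with the replicate number as a block, with quantile normalization, with scaling to the median, with only the compared groups in the fit and with the mean of the probes. It was 2, Fpr2 and Ccr2, with slide as a block, with probes above background on all 9 arrays and with trend and robust eBayes. With the deposited log2 values it was also 2, but these were Ccr2 and Cxcr2. With normexp it was 1, which was Ccr2 and not Fpr2. With each array left out in turn it was 0 to 1, and it was 1 only without Gata2 KD replicate 1. The change of Fpr2 in Pu.1 KD was -0.91 to -0.34 (adjusted p in limma 0.0227 to 0.71), and the cause was not tested. Some uncalled changes turned sign when 1 array was left out: Cxcr4 in Gata2 KD against Pu.1 KD was -0.063 without Gata2 KD replicate 1 (up to 0.29 over the arrays left out), Cxcr4 in Pu.1 KD against EV was -0.00053 without EV replicate 3 and -0.015 without Pu.1 KD replicate 2 (up to 0.25), and Fpr1 in Pu.1 KD against EV was 0.096 without EV replicate 1 (down to -0.33). Arrays of equal replicate number did not deviate together (correlations of their deviations from the group means of -0.55 to 0.65), so the numbers were not taken as pairs. Arrays of the same slide mostly did (-0.04 to 0.72, above 0 in 8 of 9 pairs), and 2 of those pairs also share a number. With slide as a block, Ccr2 in Pu.1 KD (adjusted p in limma 0.0280) and Cx3cr1 in Gata2 KD against EV (0.0418) passed the test. With the replicate block the adjusted p of Fpr2 in Pu.1 KD was 0.0829, and no other call of a member changed. Signal over background limited Ccr1, whose probe exceeded it on 1 array.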
